A study of Mus musculus with 8 samples.

Results

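The genes described here buffer high-energy phosphate in the heart through creatine and through adenylate kinases. They were chosen by name as 9 of the 55471 genes counted: Ckm, Ckmt2, Ckb, Slc6a8, Gatm, Gamt, Ak1, Ak3 and Ak4. All 9 passed the filter on low counts, and 15084 genes were tested. RNA was sequenced from a piece of heart of 4 WT mice and 4 TAZG197V mice. TAZG197V is a CRISPR/Cas9 knock-in of a Barth syndrome patient mutation into Tafazzin, the X-linked gene of the enzyme that remodels the mitochondrial lipid cardiolipin. It was made in C57BL/6N zygotes and the founders were later crossed to C57BL6/J. The mutation is carried in every cell of the animal, so that no promoter or Cre limits it to the heart. No mouse was treated, and the study used hemizygous males, aged 14 weeks in its expression plots. The labels do not give the litters, so that p-values measure the spread between these libraries.

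Creatine kinase moves phosphate between ATP and creatine, and phosphocreatine carries it from mitochondria to the myofibrils and ion pumps. The heart takes most of its creatine from the blood, while kidney and liver carry out most of its synthesis. Adenylate kinases make ATP and AMP from a pair of ADP molecules, and AMP in turn activates the energy sensor AMPK.

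Of the 9 genes, 6 were lower in TAZG197V hearts (Ckmt2, Ckb, Gamt, Ak1, Ak3 and Ak4) and 1 was higher (Slc6a8), while Ckm and Gatm did not pass. A gene was called when its adjusted p was under 0.05, its log2 fold change lay beyond 0.20 in either direction and its mean scaled count was at least 50. Among all genes tested, 33.5% were called, 18.5% higher and 15.1% lower. The median log2 fold change was -0.26 over the 9 genes and -0.01 over all genes. In 4 of the 9 (Ckb, Gamt, Ak1 and Ak3) no TAZG197V library overlapped the WT libraries, as was so for 33.2% of all genes. Levels are given as CPM, reads scaled to a common library size, and as CPM per kb of exon where genes are compared with each other.

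**Figure D1:**
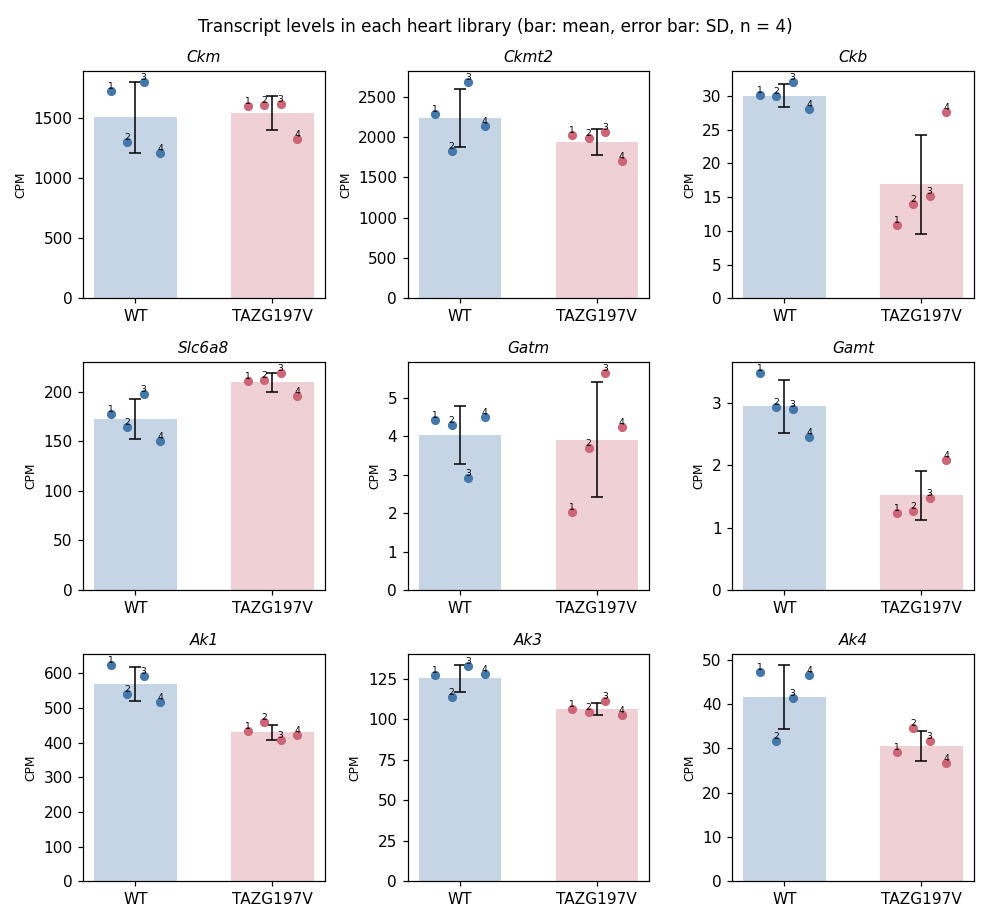
Level of each gene (CPM, linear axis from 0) in the 4 WT and 4 TAZG197V heart libraries, with points numbered by library, bars at the mean and error bars of 1 SD. Ckb, Gamt, Ak1 and Ak3 are lower in every TAZG197V library than in any WT library, with Ckb in TAZG197V 4 (27.5 CPM) close to WT 4 (27.99 CPM).

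The RNA came from whole pieces of tissue, in which fewer cells of a type and less RNA per cell cannot be told apart. The summed level of 6 cardiomyocyte markers was 48649 to 53520 CPM in WT and 39364 to 43940 CPM in TAZG197V libraries, and 4 of the 6 (Tnnt2, Tnni3, Ryr2 and Pln) were called lower. The summed level of 7 brain markers stood apart in both number 4 libraries, at 192 CPM in WT 4 against at most 93.0 in the other WT libraries and at 306 CPM in TAZG197V 4 against 46.6 to 61.3 in the other TAZG197V libraries. These 3 libraries lay below every WT library, and of the 7 markers Slc1a2 was called higher and Mbp and Camk2a lower. Camk2a made up most of the sum outside the number 4 libraries, at 63.1 to 69.1 CPM in WT 1 to 3 and 32.3 to 37.9 CPM in TAZG197V 1 to 3. Snap25 was at 8.04 CPM in WT 4 and 21.7 CPM in TAZG197V 4, against at most 0.474 CPM elsewhere. Gfap was at 2.81 and 5.76 CPM in the same libraries, against at most 0.357 CPM elsewhere. The 4 fibroblast markers summed to 743 to 1242 CPM in WT and 498 to 692 CPM in TAZG197V, with Pdgfra and Dcn called lower. Of the 4 endothelial markers, 566 to 813 CPM in WT and 453 to 597 CPM in TAZG197V, Cdh5 and Kdr were called lower. Atrial markers ran from 3.79 CPM (WT 4) to 1057 CPM (WT 2) in WT and from 28.6 to 129.97 CPM in TAZG197V, and Myl7 and Myl4 were called lower. WT 4 also held 44081 CPM of 4 red cell markers, against at most 854 CPM in the other WT libraries and 182 to 459 CPM in TAZG197V. All 4 were called lower. The 6 skeletal muscle markers summed to 4.20 to 58.6 CPM in WT and 3.10 to 8.69 CPM in TAZG197V, with Mybpc2 called lower. The part of these cell types in the levels of the 9 genes was not tested. Taz itself, the edited gene, had 1886, 2137, 1594 and 1328 counts in WT 1 to 4 and 1322, 1868, 1436 and 1207 in TAZG197V 1 to 4. Its log2 fold change was -0.37 (SE 0.06, edgeR adjusted p = 0.00124), a level that does not read the edited base.

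The main creatine kinases of the heart are Ckm, the cytosolic muscle form bound in part to the myofibrils, and Ckmt2, the sarcomeric form of the mitochondrial intermembrane space. Ckb is the brain-type cytosolic form, which the heart holds at a low level. Per kb of exon, Ckmt2 had the highest level of the creatine kinases in both genotypes, at 1503 in WT and 1305 in TAZG197V. Ckm followed at 516 and 527, and Ckb stood far below at 10.4 and 5.83. Lengths were those of all annotated exons merged, 1486 bases for Ckmt2, 2913 for Ckm and 2895 for Ckb. Levels per kb and shares of a family depend on this choice of length. The promoters of Ckm and Ckb are shown here as those of the cytosolic forms, of which Ckb was called and Ckm was not; the test of their ratio, given further on, did not pass. The promoters of Gatm and Gamt are shown with them as the successive steps of creatine synthesis. Each window runs from 250 bases before to 50 bases after the start that RefSeq gives on GRCm38.p6, and is printed 5′ to 3′ on the strand of the gene. The windows are chr7:19410844-19411143 on the plus strand for Ckm, chr12:111672289-111672588 on the minus strand for Ckb, chr2:122611228-122611527 on the minus strand for Gatm and chr10:80260963-80261262 on the minus strand for Gamt. Capitals mark matches on either strand to 5 motifs: TATAA (core of the TATA box), CCAAT (bound by NF-Y), ACGTG (core of the hypoxia response element), AAGGTCA (half-site of the oestrogen-related receptors) and TGATGNAA (element read by ATF4 with a C/EBP partner).
Ckm: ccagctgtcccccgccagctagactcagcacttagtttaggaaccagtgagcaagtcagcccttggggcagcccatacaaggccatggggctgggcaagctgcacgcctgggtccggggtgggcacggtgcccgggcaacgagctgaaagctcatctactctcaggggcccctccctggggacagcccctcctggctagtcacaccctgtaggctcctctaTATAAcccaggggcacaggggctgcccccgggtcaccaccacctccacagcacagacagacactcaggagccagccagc
Ckb: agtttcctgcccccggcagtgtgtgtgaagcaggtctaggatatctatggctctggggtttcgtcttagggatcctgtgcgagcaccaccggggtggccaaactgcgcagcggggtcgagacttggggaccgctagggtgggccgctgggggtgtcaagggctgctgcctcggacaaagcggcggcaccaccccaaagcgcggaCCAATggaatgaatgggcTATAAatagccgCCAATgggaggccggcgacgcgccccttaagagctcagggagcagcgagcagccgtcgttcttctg
Gatm: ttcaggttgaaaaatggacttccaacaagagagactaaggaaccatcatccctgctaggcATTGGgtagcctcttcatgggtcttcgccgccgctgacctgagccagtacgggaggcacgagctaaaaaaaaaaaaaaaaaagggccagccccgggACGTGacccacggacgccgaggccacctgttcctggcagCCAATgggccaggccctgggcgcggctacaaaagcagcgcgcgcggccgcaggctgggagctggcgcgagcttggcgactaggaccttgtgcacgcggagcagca
Gamt: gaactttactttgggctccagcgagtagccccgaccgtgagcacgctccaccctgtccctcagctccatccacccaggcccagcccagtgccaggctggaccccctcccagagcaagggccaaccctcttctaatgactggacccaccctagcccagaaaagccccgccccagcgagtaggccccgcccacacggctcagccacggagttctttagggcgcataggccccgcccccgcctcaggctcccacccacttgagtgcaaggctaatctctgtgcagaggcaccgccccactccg

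Of the 32851 promoters in the table, 24.9% held TATAA, while 37.4% held CCAAT and 19.6% held ACGTG. The longer motifs were rarer, with AAGGTCA in 4.72% and TGATGNAA in 3.97% of promoters. No motif contains another, although matches may overlap. Ckm held 1 match to TATAA, and Ckb held 1 to TATAA and 2 to CCAAT. Gatm held 2 matches to CCAAT and 1 to ACGTG, while no match to the 5 motifs was in the window of Gamt. Among the other members, the window of Ckmt2 held 2 matches to CCAAT and that of Ak3 held none of the 5. Ak1 and Ak4 have several starts. For Ak1, window 2 held 2 matches to TATAA, window 3 held 1 to AAGGTCA, window 4 held 1 to ACGTG and window 1 held none. For Ak4, windows 1 to 3, which overlap, each held 1 match to CCAAT, and window 4 held 2 to ACGTG. No window of any member held TGATGNAA. RefSeq promoters were found for 8 of the 9 genes, all but Slc6a8. These matches describe the letters of the windows, and no binding was measured.

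Ckm (ENSMUSG00000030399, chromosome 7, 19404776 to 19422841, plus strand) did not differ between genotypes by the test. Its counts were 50850, 47150, 46128 and 27062 in WT 1 to 4 and 43914, 59480, 50015 and 36085 in TAZG197V 1 to 4. Scaled to library size these were 1720.1, 1296, 1791 and 1208 CPM in WT and 1595, 1605, 1614 and 1323 CPM in TAZG197V. The TAZG197V libraries lay within the WT range, and WT itself fell into a higher and a lower pair. Its log2 fold change was 0.02 (SE 0.10, edgeR adjusted p = 0.884), with a 95% interval from -0.21 to 0.25. An antisense gene, A930016O22Rik, covers 15.5% of the exon bases of Ckm, and the strand setting of the counting was not stated.

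Ckmt2 (ENSMUSG00000021622, chromosome 13, 91853387 to 91876885, minus strand) was lower in TAZG197V by a small step that did not hold in most alternatives. Its counts were 67488, 66616, 69141 and 47868 in WT 1 to 4 and 55555, 73463, 63771 and 46292 in TAZG197V 1 to 4. The levels were 2283, 1831, 2685 and 2137 CPM in WT and 2018, 1983, 2058 and 1698 CPM in TAZG197V. The genotypes overlapped through WT 2, which lay below 3 of the 4 TAZG197V libraries. The log2 fold change was -0.24 (SE 0.08, edgeR adjusted p = 0.0414). The call held in 6 of 17 alternative fits, over which the log2 fold change ran from -0.30 to -0.13. It was lost without WT 3, WT 4, TAZG197V 1, TAZG197V 2 or TAZG197V 4 (edgeR adjusted p = 0.0594 to 0.374). The fits without WT 4 or TAZG197V 4 had 1 surrogate variable in place of 2. That change alone, with all 8 libraries, also lost the call (log2 fold change -0.20, edgeR adjusted p = 0.171). Within lane 7 the difference of the mean log2 levels was -0.03, and within lane 8 it was -0.36.

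Ckb (ENSMUSG00000001270, chromosome 12, 111669361 to 111672338, minus strand) had one of the largest falls of the set. Its counts were 889, 1093, 827 and 627 in WT 1 to 4 and 298, 519, 469 and 751 in TAZG197V 1 to 4. The levels were 30.1, 30.04, 32.1 and 27.99 CPM in WT and 10.8, 14.0, 15.1 and 27.5 CPM in TAZG197V. WT libraries were close together, 3 TAZG197V libraries were far below them, and TAZG197V 4 stood just under the lowest WT library. Its fold change was -0.89 on the log2 scale (SE 0.18, edgeR adjusted p = 0.00622), a level of 0.54 of WT. Without TAZG197V 4 it was -1.19, and without both number 4 libraries -1.20 (edgeR adjusted p = 0.000185 and 0.000152). Both fits had 1 surrogate variable, with which all 8 libraries gave -0.92 (edgeR adjusted p = 0.00554). TAZG197V 4 is also the library with 306 CPM of brain markers, of which Camk2a made up 89.5 CPM, Slc1a2 79.0 and Nnat 73.2, whereas WT 4, with 192 CPM of the same markers, had the lowest Ckb of the WT libraries. Of 4 smooth muscle markers, Myh11, Cnn1 and Tagln were also lower, by log2 fold changes of -0.98, -0.97 and -0.74, and Acta2 was higher by 1.16 (edgeR adjusted p = 0.00108, 0.00735, 0.033 and 0.0159). Their summed level was 124 to 256 CPM in WT and 218 to 412 CPM in TAZG197V. Myh11 was at 47.0, 83.0, 35.3 and 29.7 CPM in WT 1 to 4 and at 18.2, 22.7, 14.2 and 27.8 CPM in TAZG197V 1 to 4, with TAZG197V 4 just under WT 4 as for Ckb. Camk2a was at 69.1, 65.8, 63.1 and 90.4 CPM in WT 1 to 4 and at 37.9, 33.7, 32.3 and 89.5 CPM in TAZG197V 1 to 4, and was called lower (log2 fold change -0.70, edgeR adjusted p = 0.000752). Like Ckb, it was low in 3 TAZG197V libraries and just under WT 4 in TAZG197V 4, although above the other WT libraries there. The part of brain and smooth muscle transcripts in the level of Ckb was not tested. Of the 50-base windows of Ckb, 9.98% also occur in other genes, among them the pseudogenes Ckb-ps1 and Ckb-ps2.

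The mitochondrial creatine kinase of other tissues, Ckmt1, was chosen for mention after its values were seen. It had 10, 19, 3 and 41 counts in WT 1 to 4 and 25, 26, 19 and 100 in TAZG197V 1 to 4, and was not called (log2 fold change 0.93, SE 0.34, edgeR adjusted p = 0.0618). The highest value of each genotype was in its number 4 library, as for the brain markers. As a share of the 4 creatine kinases per kb of exon, Ckmt2 made up 74.1% ± 2.28 (SD, n = 4) in WT and 71.0% ± 0.285 in TAZG197V, and Ckm 25.4% ± 2.29 and 28.6% ± 0.378. Ckb made up 0.519% ± 0.0689 in WT and 0.328% ± 0.179 in TAZG197V, where TAZG197V 4 alone reached 0.592%. The summed level of the family was 2030.2 ± 326 CPM per kb in WT and 1838 ± 155 in TAZG197V, with overlapping libraries.

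Slc6a8 (ENSMUSG00000019558, chromosome X, 73673150 to 73682502, plus strand), the creatine transporter of the plasma membrane, was the only one of the 9 genes called higher. Its counts were 5251, 5982, 5094 and 3366 in WT 1 to 4 and 5794, 7844, 6765 and 5341 in TAZG197V 1 to 4. The levels were 178, 164, 198 and 150.3 CPM in WT and 210.5, 212, 218 and 196 CPM in TAZG197V. Of the TAZG197V libraries 3 were above every WT library, and TAZG197V 4 lay just under WT 3. Its fold change was 0.28 on the log2 scale (SE 0.07, edgeR adjusted p = 0.0164), or 1.21-fold, with 95% limits of 0.11 and 0.44. It was 0.30 within lane 7 and 0.26 within lane 8 as a difference of mean log2 levels. With lane as a covariate in place of the surrogate variables the log2 fold change was 0.28 with an adjusted p of 0.0516, and without TAZG197V 1 it was 0.27 with an adjusted p of 0.0504 (edgeR). Taz, the edited gene, lies near Slc6a8 on chromosome X, at 74281912 to 74290151. The part of sequence linked to the edit in the level of Slc6a8 was not tested.

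The genes whose levels ran most alike with Slc6a8 over the 8 libraries were Timm9, an intermembrane space chaperone (Pearson r = 0.991), Cox7a2l, an assembly factor of respiratory supercomplexes (r = 0.987), and Gpx4, a peroxidase of lipid hydroperoxides (r = 0.986). These are descriptions over libraries that share 2 genotypes. Each of these 3 genes was itself called higher, with log2 fold changes of 0.38, 0.28 and 0.58 (edgeR adjusted p = 0.0138, 0.0111 and 0.00128).

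Creatine is made in 2 steps, in which Gatm forms guanidinoacetate from arginine and glycine, and Gamt methylates it. Both had few counts in the heart. In WT the level of Gatm was 1.34 CPM per kb of exon and that of Gamt 2.04, against 33.1 for the transporter. The TAZG197V levels were 1.30, 1.05 and 40.1 in the same order. Of the 4 kidney markers 3 were at 0 in all 8 libraries, and the 4 liver markers summed to at most 11.9 CPM in WT and 3.89 CPM in TAZG197V.

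Gamt (ENSMUSG00000020150, chromosome 10, 80258151 to 80261012, minus strand) was lower in every TAZG197V library than in any WT library. Its counts were 103, 107, 75 and 55 in WT 1 to 4 and 34, 47, 46 and 57 in TAZG197V 1 to 4. The levels were 3.48, 2.94, 2.91 and 2.46 CPM in WT and 1.24, 1.27, 1.48 and 2.09 CPM in TAZG197V. The nearest libraries of the genotypes were the number 4 pair. The log2 fold change was -0.96 (SE 0.20, edgeR adjusted p = 0.00732), a level of 0.52 of WT and the largest fall of the 9 genes. It ran from -1.22 to -0.83 over 17 alternative fits and passed in all of them. Within lane 7 the difference of mean log2 levels was -1.35 and within lane 8 it was -0.60.

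Gatm (ENSMUSG00000027199, chromosome 2, 122594467 to 122611303, minus strand) had no difference by the test. Its counts were 131, 156, 75 and 101 in WT 1 to 4 and 56, 137, 175 and 116 in TAZG197V 1 to 4. The levels were 4.43, 4.29, 2.91 and 4.51 CPM in WT and 2.03, 3.70, 5.65 and 4.25 CPM in TAZG197V. Both the lowest and the highest library were TAZG197V. The log2 fold change was -0.03 (SE 0.30, edgeR adjusted p = 0.951), with 95% limits of -0.72 and 0.66, so that a change of the size seen for Ckb or Gamt lay just outside the interval. Its within-lane differences had opposite signs, -0.67 in lane 7 and 0.44 in lane 8.

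The genes most alike with Gamt over the 8 libraries were Dcaf6 (Pearson r = 0.986), Fam131a (r = 0.982) and Lrrc4b (r = 0.981). All 3 were called lower, with log2 fold changes of -0.31, -1.746 and -1.23 (edgeR adjusted p = 0.00415, 0.000306 and 0.00804).

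**Figure D2:**
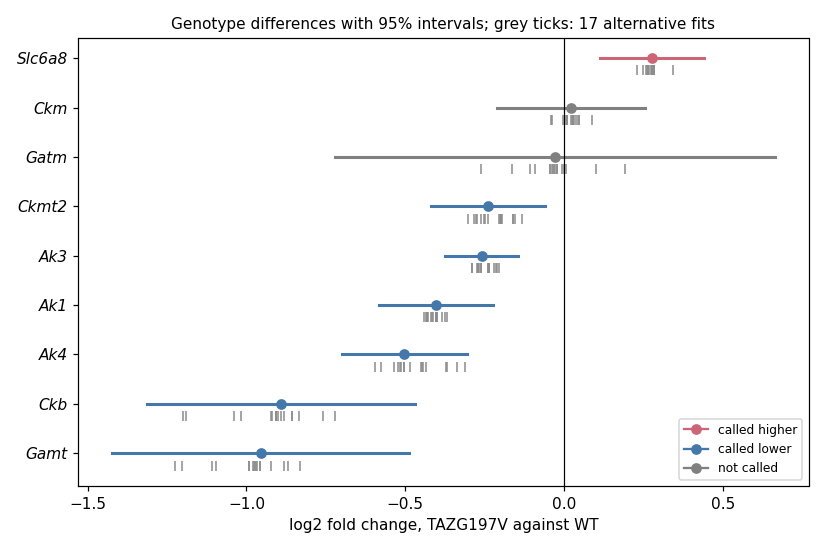
Log2 fold change of each gene, TAZG197V against WT, as a point with its 95% interval, coloured by call, with the values of 17 alternative fits as grey ticks under it. Slc6a8 lies above 0, the intervals of Ckm and Gatm cross 0, and Ckb and Gamt lie farthest below it, at -0.89 and -0.96.

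Of the adenylate kinases, Ak1 is the main cytosolic form of muscle, Ak3 is the matrix form that uses GTP, and Ak4 is a further matrix form of low catalytic activity. All 3 were lower in TAZG197V. Ak1 was the highest per kb of exon, with 219 CPM (WT) and 166 CPM (TAZG197V), followed by Ak3 at 40.3 and 34.1 and Ak4 at 8.96 and 6.56.

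Ak1 (ENSMUSG00000026817, chromosome 2, 32621758 to 32635058, plus strand) had 18466, 19632, 15274 and 11554 counts in WT 1 to 4 and 11892, 16972, 12620 and 11520 in TAZG197V 1 to 4. The levels were 625, 539, 593 and 516 CPM in WT and 432, 458, 407 and 422 CPM in TAZG197V. Every TAZG197V library lay below every WT library, with little spread within TAZG197V. The log2 fold change was -0.40 (SE 0.08, edgeR adjusted p = 0.00459), a level of 0.76 of WT, and the call held in all 17 alternative fits. The within-lane differences were alike, at -0.38 in lane 7 and -0.42 in lane 8. In the same libraries the cardiomyocyte markers Tnnt2, Ryr2 and Pln fell by 0.33, 0.45 and 0.66 on the log2 scale (edgeR adjusted p = 0.0158, 0.0225 and 0.000462). Tnni3 fell by 0.32, while Myh6 (log2 fold change -0.28) and Actc1 (-0.05) were not called (edgeR adjusted p = 0.0255, 0.0651 and 0.65). Their part in the level of Ak1 was not tested.

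Ak3 (ENSMUSG00000024782, chromosome 19, 29020833 to 29047961, minus strand) had 3764, 4140, 3430 and 2869 counts in WT 1 to 4 and 2933, 3881, 3454 and 2805 in TAZG197V 1 to 4. The levels were 127, 114, 133 and 128 CPM in WT and 107, 105, 111 and 103 CPM in TAZG197V. The genotypes did not overlap, and the nearest libraries were WT 2 and TAZG197V 3. A log2 fold change of -0.26 was fitted (SE 0.05, edgeR adjusted p = 0.00459), and within lanes 7 and 8 the differences were -0.19 and -0.29. Without TAZG197V 4 it was -0.21 with an adjusted p of 0.0525 (edgeR). That fit had 1 surrogate variable, with which all 8 libraries gave -0.24 (edgeR adjusted p = 0.0173). Other genes, Cdc37l1 among them, cover 22.9% of the exon bases of Ak3, so that its counts are less certain.

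Ak4 (ENSMUSG00000028527, chromosome 4, 101419277 to 101466995, plus strand) had 1394, 1148, 1064 and 1042 counts in WT 1 to 4 and 800, 1280, 982 and 727 in TAZG197V 1 to 4. The levels were 47.2, 31.5, 41.3 and 46.5 CPM in WT and 29.1, 34.5, 31.7 and 26.7 CPM in TAZG197V. WT 2 was the lone WT library within the TAZG197V range. A log2 fold change of -0.50 was fitted (SE 0.09, edgeR adjusted p = 0.00249), and within lanes 7 and 8 the differences were -0.28 and -0.59. Without TAZG197V 4 it was -0.34, and without both number 4 libraries -0.31 (edgeR adjusted p = 0.0885 and 0.0622). Both fits had 1 surrogate variable, with which all 8 libraries gave -0.45 (edgeR adjusted p = 0.0322). Of its 50-base windows, 10.2% also occur in the pseudogene Ak3l2-ps.

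Ak6, a nuclear adenylate kinase outside the 9 genes, was at 12.1, 11.0, 12.5 and 10.2 CPM in WT 1 to 4 and 15.9, 16.03, 16.9 and 16.1 CPM in TAZG197V 1 to 4. Every TAZG197V library was above every WT library, with a rise of 0.50 on the log2 scale (SE 0.08, edgeR adjusted p = 0.00216). Of its exon bases 59.1% lie in other genes, mainly Taf9, so that its counts are less certain.

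The summed level of Ak1, Ak3 and Ak4 was 268 ± 21.0 CPM per kb of exon (SD, n = 4) in WT and 206 ± 8.08 in TAZG197V, with no overlap between the genotypes. The libraries of the genotypes overlapped in the share of each gene, and the shares were not tested. Of the sum, Ak1 made up 81.6% ± 1.46 in WT and 80.3% ± 1.10 in TAZG197V, Ak3 15.0% ± 1.06 and 16.5% ± 1.02, and Ak4 3.34% ± 0.547 and 3.18% ± 0.288.

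**Figure D3:**
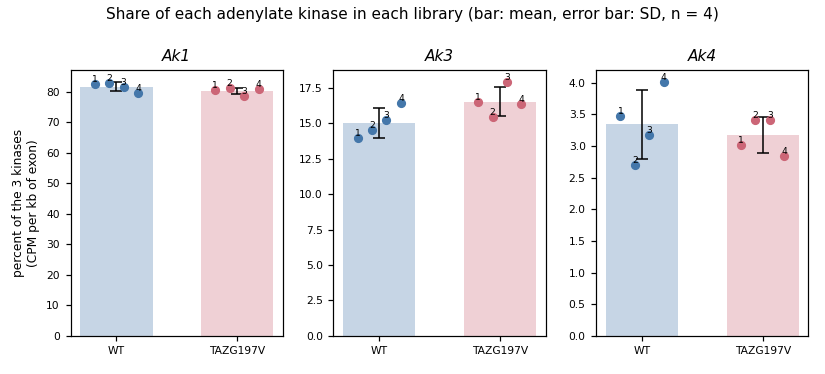
Share of Ak1, Ak3 and Ak4 in their summed CPM per kb of exon (percent, linear axes from 0, a scale for each panel) in the 4 WT and 4 TAZG197V libraries, with bars at the mean and error bars of 1 SD. The libraries of the genotypes overlap for each of the 3 genes, with Ak1 at 81.6% in WT and 80.3% in TAZG197V.

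Ratios of CPM per kb were compared between members that share a reaction or a pathway, with an exact two-sided permutation test over the 70 assignments of 8 libraries, adjusted over the 4 ratios. None passed. The smallest p the design allows is 0.0286, and a single ratio at that p has an adjusted p of 0.114, so that 1 ratio alone could not pass. The log2 ratio of Ckmt2 to Ckm was 1.38, 1.47, 1.56 and 1.79 in WT 1 to 4 and 1.31, 1.28, 1.32 and 1.33 in TAZG197V 1 to 4. It was lower in every TAZG197V library, by 0.24 on average (exact permutation p = 0.0286, adjusted p = 0.114). Without WT 4 the difference was -0.16. The log2 ratio of Ckb to Ckm was -5.83, -5.42, -5.79 and -5.42 in WT and -7.19, -6.83, -6.73 and -5.58 in TAZG197V, where TAZG197V 4 fell among the WT libraries (difference -0.97, exact permutation p = 0.0857, adjusted p = 0.114). The ratio of Gatm to Gamt was higher by 0.86 on the log2 scale (exact permutation p = 0.0571, adjusted p = 0.114), and that of Ak4 to Ak3 differed by -0.20 (exact permutation p = 0.171, adjusted p = 0.171).

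**Figure D4:**
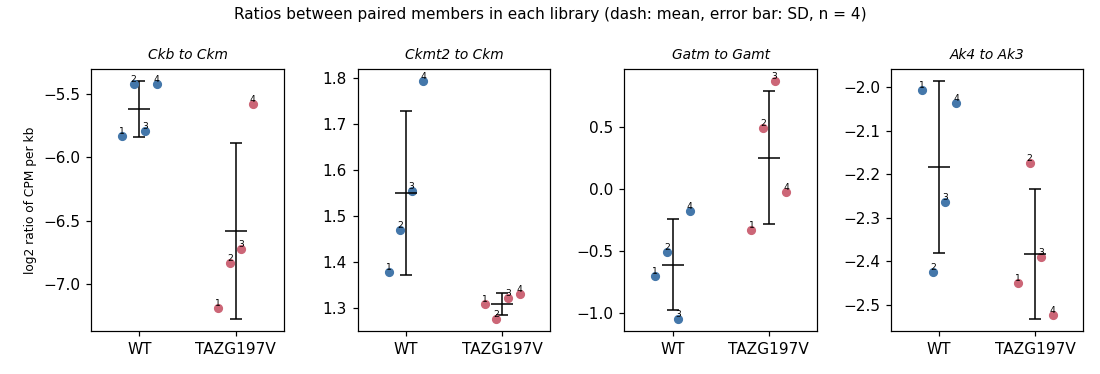
Log2 ratio of CPM per kb of exon for 4 pairs of members (a scale for each panel) in the 4 WT and 4 TAZG197V libraries, with a dash at the mean and error bars of 1 SD. The ratio of Ckmt2 to Ckm is the one pair whose genotypes do not overlap, at a mean of 1.55 in WT and 1.31 in TAZG197V.

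Beyond the 9 genes, 41 genes of nucleotide kinases, the adenine nucleotide pool, mitochondrial carriers and creatine precursors were examined. Of these, 33 were tested, 13 were called higher and 7 lower, which is 60.6% against 33.5% of all genes. Their median change was 0.14 on the log2 scale. Of the 8 tested genes among the other nucleotide kinases, 5 were called, all higher. The 4 largest changes were in Nme genes, nucleoside diphosphate kinases that pass phosphate from ATP to other nucleotides. Nme1 rose from 10.9 to 19.2 CPM on average, Nme4, the mitochondrial form, from 5.01 to 8.74, and Nme6 from 11.5 to 17.2 (log2 fold changes 0.80, 0.77 and 0.59, edgeR adjusted p = 0.000414, 0.000995 and 0.00136). Nme2 rose by 0.48 on the log2 scale (edgeR adjusted p = 0.00791), with 48.9% of its exon bases in the overlapping gene Gm20390. Nme3 was at 0 in all 8 libraries, and 99.7% of its exon bases lie in other genes.

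Of the 12 genes tested of the adenine nucleotide pool, 4 were higher and 4 lower. Nt5e, the surface enzyme that turns AMP into adenosine outside the cell, was at 30.7, 30.1, 29.01 and 25.5 CPM in WT 1 to 4 and at 63.8, 78.4, 73.8 and 64.8 CPM in TAZG197V 1 to 4. Nt5c1a, the cytosolic enzyme for the same reaction in muscle, was at 18.3, 14.0, 12.7 and 16.1 CPM in WT and at 7.01, 7.39, 6.49 and 4.73 CPM in TAZG197V. Neither gene's genotypes overlapped, and the changes were of about equal size in opposite directions (log2 fold changes 1.30 and -1.29, edgeR adjusted p = 1.38e-05 and 0.000404). Aprt, which salvages adenine to AMP, rose by 0.94, and Ampd3, an AMP deaminase, fell by 0.49 on the log2 scale (edgeR adjusted p = 0.00013 and 0.00156).

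The ADP/ATP carriers of the inner mitochondrial membrane, which supply Ckmt2 with ATP, moved apart. Slc25a4, the main form of heart, fell from 5240.0 ± 681 to 4079 ± 196 CPM (SD, n = 4), and Slc25a5, the more widespread form, rose from 89.5 ± 14.3 to 193 ± 17.2 CPM. Their log2 fold changes were -0.37 and 1.06 (edgeR adjusted p = 0.0148 and 3.56e-05). Of the 50-base windows of Slc25a5, 33.8% also occur in other genes, Slc25a5-ps among them. The phosphate carrier Slc25a3 fell by 0.22 on the log2 scale (edgeR adjusted p = 0.0331). Among the genes of creatine precursors and by-products 2 of 5 tested were higher and 1 lower. Asl, which makes arginine, rose by 0.75 and Ahcy, which clears the by-product of the Gamt reaction, by 0.60, while Oat, which uses ornithine, fell by 0.28 on the log2 scale (edgeR adjusted p = 0.000728, 0.0225 and 0.00607). Of the windows of Ahcy, 68.7% also occur in other genes.

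**Figure D5:**
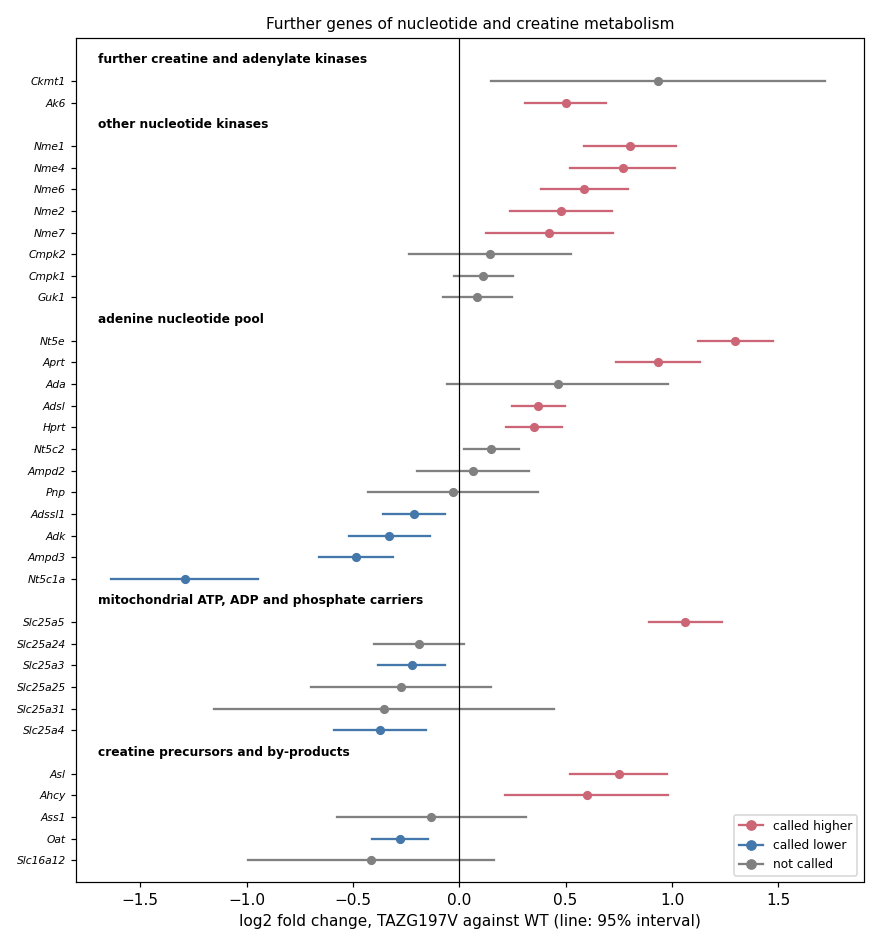
Log2 fold change of the 33 tested genes around the 9 members, TAZG197V against WT, by list, with 95% intervals and coloured by call. Nt5e (1.30) and Nt5c1a (-1.29) lie at the ends, and Slc25a5 (1.06) and Slc25a4 (-0.37) on opposite sides of 0.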

How the data were processed

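RNA of 4 WT and 4 TAZG197V hearts was sequenced as 50-base single reads. According to the submitters' processing notes, the authors used bcl2fastq 2.20.0, FastQC 0.11.9, STAR 2.7.3a on mm10 and featureCounts of Subread 2.0.0, which counted reads in exons. The deposited values are raw counts per Ensembl gene. How strand and multi-mapping reads were handled, and from which annotation, is not given in the sources used here. The 92 spike-in rows summed to 0 and were left out. Total counts ran from 23055689 to 36301031 per library, and precision is limited for genes of few counts.

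Counts were fitted with the quasi-likelihood test of edgeR 4.0.16 in R 4.3.3, with TMM scaling, the filterByExpr filter and 2 surrogate variables from sva 3.50.0, and p-values were adjusted over 15084 genes by Benjamini-Hochberg. Surrogate variables are estimated from the same counts that are tested. Their number was estimated anew in fits that left libraries out, and was 1 without WT 2, WT 4, TAZG197V 4 or both number 4 libraries. Standard errors were taken from the F statistic. CPM used TMM library sizes, and exon lengths, positions and symbols came from the GENCODE M21 annotation of the same build. An exon length was that of all annotated exons of a gene merged. Lanes were read from the names under which the libraries' tables were deposited, since the labels give none, and were 7 for numbers 1 and 2 and 8 for numbers 3 and 4. Steps across many genes were tested on simulated data.

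The genes, the lists and the tests were chosen with earlier results of these data known. The rule for names took the 9 genes, Taz, up to 4 called genes of each further list by size of change, genes at 0 in every library, the 3 genes most alike with the largest rise and the largest fall, and markers beside a result. One further gene was left out of these lists and of their counts and is not reported here. Alternatives were DESeq2 1.42.0, other surrogate variables or lane, the replicate number as a block, other scalings, no low-count filter, other fold limits and fits without each library or without both number 4 libraries.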

Additional observations from a re-analysis of the deposited data

Results flagged for a closer look

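In sets of 4 libraries of one genotype, the gap of an extreme library to its nearest neighbour was divided by the range of the set. Of 118 sets 15 passed Dixon's 95% limit, where chance gives about 5.9, or about 1 in 20. Among the genes described, Ckm was lowest in TAZG197V 4 (0.9362 of the range) and Gatm lowest in WT 3 (0.8608). Among the further genes, Ckmt1 was highest in TAZG197V 4 (0.9034), Cmpk2 highest in TAZG197V 3 (0.8371), Ada lowest in TAZG197V 4 (0.8561) and Slc25a3 lowest in WT 2 (0.851).

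Of the summed marker levels, brain markers were highest in WT 4 (0.9481) and in TAZG197V 4 (0.9435), and red cell markers in WT 4 (0.9868). In WT 2 adipocyte (0.8481), atrial (0.8944), fibroblast (0.9063) and liver markers (0.8929) were highest. Atrial markers were highest in TAZG197V 2 (0.875) and adipocyte markers in TAZG197V 4 (0.9596).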

How the results depend on the processing

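Ak1, Ckb, Gamt and Taz kept direction and call in all 17 alternative fits, Ak3 in 16, Slc6a8 in 15, Ak4 in 14 and Ckmt2 in 6. With a fold limit of 1.5, 1843 of all genes, 2 of the 9 genes and 9 of the further genes were called, against 5060, 7 and 20. Leaving out each library in turn gave 3675 to 4815 of all genes, 4 to 7 of the 9 and 16 to 19 of the further genes. The low of 4 was without TAZG197V 4, where Ak1, Ckb, Gamt and Slc6a8 were called. That fit had 1 surrogate variable in place of 2, and the cause was not tested.

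The genes not called changed sign when each library was left out in turn. Ckm ran from -0.041 to 0.089 (below 0 without WT 2, WT 4 or TAZG197V 1), and Gatm from -0.26 to 0.19 (above 0 without WT 1, TAZG197V 1 or TAZG197V 2). The 4 ratios kept their sign in all 11 alternatives. No alternative could pass the test, since the smallest possible p is 0.0571 with 4 against 3 libraries, 0.1 with 3 against 3 and 0.125 with 4 pairs, and the ratio of means has no test. The scalings tried moved the median of all genes by less than 0.1.

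Samples of one number correlated in their deviations at 0.25, 0.03, 0.27 and 0.40. Since the number 2 pair was under 0.1, the numbers were not taken as pairs, although 3 of the 4 WT libraries matched their own number best, which is a hint of pairing from the data. With the replicate block 4272 genes and 5 of the 9 were called, without Ak4 (-0.44, edgeR adjusted p = 0.0764) and Ckmt2. Gatm spread widely between TAZG197V libraries (56 to 175 counts), which widens its interval.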
